A study of Mus musculus with 20 samples.

Results

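The highest exposure of the series, 75 mg/kg/day benzo(a)pyrene (BaP), was set against the vehicle control in mouse liver. The comparison took 10 of the 20 arrays by their exposure label, 5 from mice given 75 mg/kg/day BaP (replicates 16 to 20) and 5 from mice given olive oil (replicates 1 to 5). All were male Muta™Mice (strain 40.6) of 25 weeks, a transgenic line whose cells carry a lacZ reporter for scoring mutations, so the controls carried it as well. BaP dissolved in olive oil was given by oral gavage daily for 28 days, and livers were removed 3 days after dosing ended. The other 10 arrays, from mice given 25 mg/kg/day (replicates 6 to 10) or 50 mg/kg/day (replicates 11 to 15), entered the model for its estimate of spread and gave the order over dose. Each array held RNA of 1 mouse labeled with Cyanine 5, against a common pool of RNA from mouse cell lines (the universal reference) labeled with Cyanine 3. Levels below are log2 ratios of liver over reference for 1 probe, where 0 means equal signal, and they were compared between arrays and not between probes.

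BaP is a polycyclic aromatic hydrocarbon of smoke and soot. It binds the aryl hydrocarbon receptor, which switches on cytochrome P450 genes, and the P450 enzymes turn BaP into a diol epoxide that attaches to guanine in DNA. Bulky adducts of this kind stall polymerases and stabilize the transcription factor p53, whose target genes arrest the cell cycle, repair DNA or start apoptosis. The liver is the main site of this metabolism, and beside hepatocytes it holds sinusoidal endothelium, Kupffer cells (resident macrophages) and stellate cells, which store retinoids.

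The labels name both lung and liver for the same samples. All 12 hepatocyte markers that could be tested were well above background on all 10 arrays, among them *Alb* at a log2 ratio of 3.68 ± 0.69 (SD, n = 5) in the controls. Of 10 lung epithelium markers, 4 had a present probe, and the surfactant protein genes *Sftpb* and *Sftpc* were not among them. In the liver channel, 51.9 to 54.3% of spots were well above background in 4 control arrays, and control replicate 4 stood apart at 67.5%, while the exposed arrays reached at most 61.4%. All 5 exposed arrays lay at position 4 of a slide, whereas 4 controls lay at position 1 and control replicate 2 at position 2, so position and exposure cannot be told apart. Each of 3 slides held 1 control and 1 exposed array, 2 slides held an exposed array without a control, and 1 slide held 2 controls.

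At 75 mg/kg/day, 36 probes of 32 genes were up-regulated and 1 probe, for *Clic5*, was down-regulated, where called means a change beyond 1.5-fold that also met an FDR-adjusted p of 0.05. These were 0.132% and 0.00368% of the 27202 probes present in at least 1 dose group, or 0.136% in both directions. Over all 41174 non-control probes without the presence filter, 32 were called higher (0.0777%) and 1 lower (0.00243%). The adjusted p alone was met by 42 probes, 39 higher and 3 lower, and an unadjusted p under 0.05 by 3055 (11.2%). Without regard to p, 447 probes were over 1.5-fold higher and 119 over 1.5-fold lower, and 50.7% of present probes had a positive difference. The 5 exposed arrays lay above all 5 controls for 256 probes (0.941%) and below them for 158 (0.581%). Of the 37 called probes, 34 separated the groups in this way, the exceptions being *1700007K13Rik*, *Fasn* and *Cox6b2*.

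The count rested in part on single arrays and on the other dose groups. Leaving out exposed replicate 19 raised it to 65 higher and 7 lower, leaving out control replicate 3 gave 46 and 6, and leaving out exposed replicate 20 lowered it to 25 and 0. When the model held just the 10 arrays compared, 5 probes were called higher, all of them among the 36, and 0 lower, while 2544 had an unadjusted p under 0.05. With slide as a block, 50 were called higher and 8 lower, and 30 of the 37 were among them. The 7 that were not were *Gstm4*, *Gpihbp1*, *Fasn*, *Pdzk1ip1*, *Cox6b2*, *Clic5* and 1 of 3 *Cplane1* probes. In the controls, *Ltc4s* and *1700007K13Rik* were measured well above background by 3 arrays, *Ddias* by 2 and *Lrp2bp* by 4. All 37 differences had the same sign on each of the 3 slides that held both groups. For the 34 whose exposed arrays all lay beyond all controls, this sign was fixed in advance, since the same arrays made the calls. All 37 also kept their direction under every alternative that gave a value for them.

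**Figure D1:**
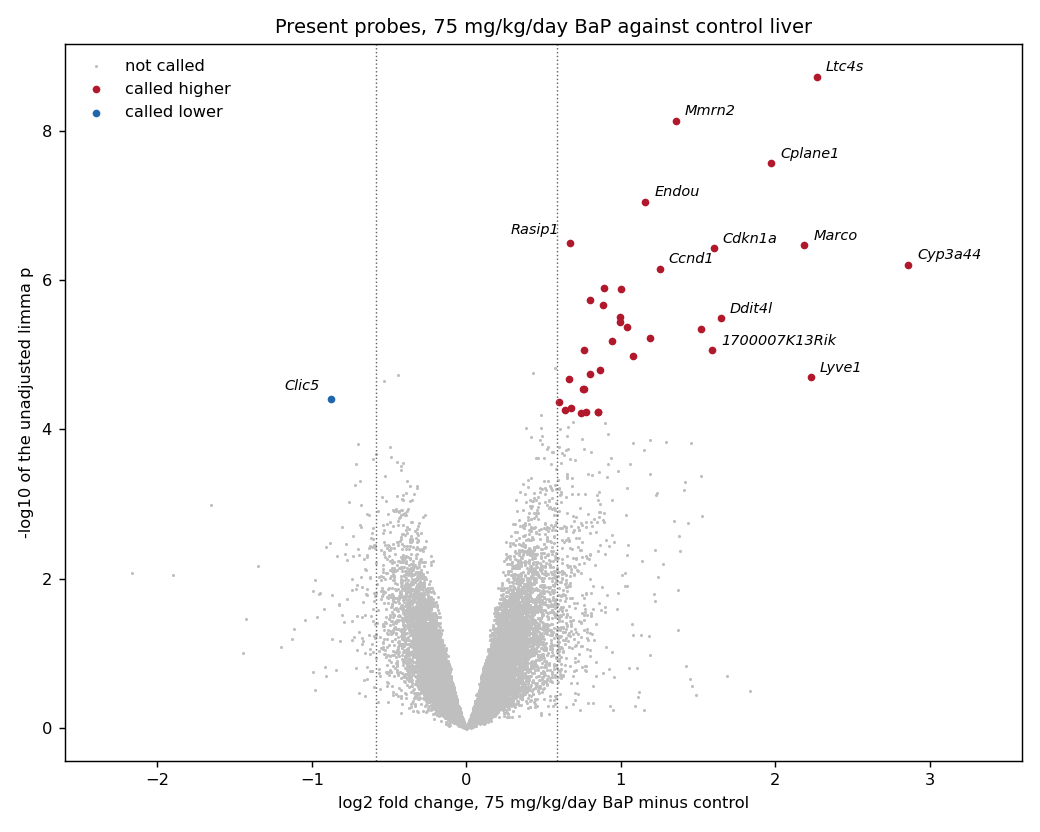
Each point is 1 of 27202 present probes, with the log2 fold change at 75 mg/kg/day over control on the x axis and -log10 of the unadjusted p from limma on the y axis. Red points are the 36 probes called higher, blue is the 1 called lower, dotted lines mark 1.5-fold, and the called points lie almost all on the right.

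*Cyp3a44*, a cytochrome P450 of the drug-metabolizing 3A family, rose most. Its log2 ratios were 0.07, 0.50, 0.47, 0.34 and 1.25 in control replicates 1 to 5 and 3.22, 4.31, 3.70, 3.44 and 2.26 in exposed replicates 16 to 20. The lowest exposed array stood a full log2 unit above the highest control. The difference was 7.26-fold (log2 2.86, SE 0.40, adjusted p = 0.00211), and 3 of 5 control arrays were well above background for it. A second, far brighter *Cyp3a44* probe gave a difference of 0.52 (SE 0.26, adjusted p = 0.454) and its groups overlapped. Members of the 3A family are close in sequence, and which transcripts each probe takes up was not tested. Leaving out any 1 array kept the call, with an adjusted p of at most 0.0104.

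The other enzymes of xenobiotic metabolism that were called changed far less. *Nqo1*, a quinone reductase under control of both the aryl hydrocarbon receptor and the antioxidant factor NRF2, had log2 ratios of -1.92, -2.02, -1.53, -1.76 and -1.87 in the controls and -1.02, -1.099, -1.04, -1.25 and -1.29 in the exposed arrays. The groups did not overlap, at 1.60-fold (adjusted p = 0.0385). *Gstm4*, a glutathione S-transferase of the Mu class, rose 1.56-fold from 3.46 ± 0.13 to 4.10 ± 0.16 (adjusted p = 0.0400). Both calls were close to the threshold. *Nqo1* lost it without any 1 of 9 arrays (highest adjusted p 0.123), and *Gstm4* without any 1 of 12 (0.135) and with slide as a block (0.117). With the liver channel alone both calls were lost as well (adjusted p = 0.052 for *Nqo1* and 0.273 for *Gstm4*).

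*Cdkn1a*, which encodes the cyclin-dependent kinase inhibitor p21 and is a classical p53 target, had log2 ratios of -2.25, -1.89, -1.66, -1.67 and -1.55 in the controls. In the exposed arrays they were -1.15, 0.27, -0.15, 0.12 and -0.11. All exposed arrays lay above all controls, with replicate 16 nearest to them, and the rise was 3.03-fold (log2 1.60, SE 0.22, adjusted p = 0.00146). With the liver channel alone the difference was 1.47 and its adjusted p 0.0659.

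Among further p53 targets fixed as a list, *Ccnd1* (cyclin D1) rose 2.38-fold (adjusted p = 0.00214), from between -2.42 and -2.04 in the controls to -1.17, -1.11, -1.20, -1.27 and -0.07. The last of these, replicate 20, stood well above the other exposed arrays. *Eda2r*, a receptor of the TNF family, was not well above background on any control array and was so on all 5 exposed arrays. Its rise was therefore given as a bound, at least 2.01-fold (measured means -1.07 and -0.03, adjusted p = 0.00671). For each control array the bound took the higher of the probe's own signal and the lowest signal among probes well above background. *Aen*, a nuclease that promotes apoptosis, rose 2.00-fold and 1.74-fold on a pair of probes (adjusted p = 0.00324 and 0.00414), while the third probe, well above background on 1 control and 2 exposed arrays, did not pass (adjusted p = 0.544). *Phlda3*, a repressor of Akt signaling, rose 1.92-fold (adjusted p = 0.00883). *Zmat3*, an RNA-binding zinc finger protein, rose 1.70-fold (adjusted p = 0.0108). For *Phlda3* and *Zmat3* the highest control array, at -1.98 and -1.61, stayed below the lowest exposed array, at -1.83 and -1.36.

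*Ddit4l* and *Ddias*, called genes outside the list, have names or known functions tied to damage signaling. *Ddit4l*, an inhibitor of mTOR signaling related to the stress gene *Ddit4*, had control log2 ratios of 0.07, -0.15, 0.06, 0.53 and 0.16. In the exposed arrays they were 0.89, 2.35, 2.76, 1.58 and 1.34, again with replicate 16 lowest. The rise was 3.13-fold on this probe and 2.87-fold on a second (adjusted p = 0.00591 and 0.00683), and the third probe did not pass (adjusted p = 0.0894). Of the 5 controls, 4 measured the first probe well above background and 1 each of the other *Ddit4l* probes, so the control level behind their folds rests on few measured arrays, and the third was present only through the exposed groups. *Ddias*, the DNA damage-induced apoptosis suppressor, rose 2.11-fold (adjusted p = 0.0122), and without exposed replicate 17 its adjusted p was 0.0508.

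Promoter sequence from RefSeq (GRCm38.p6), 250 bases before to 50 after each annotated start, was matched by symbol to 23 of the 32 genes called higher. The half-site of the p53 response element lay in at least 1 promoter of 4 of them (17.4%), against 899 of 10341 tested genes with a promoter (8.69%). Per promoter, the shares were 5 of 28 (17.9%) and 957 of 13181 (7.26%). The core of the aryl hydrocarbon receptor element, GCGTG, was held by 10 of the 23 genes (43.5%) and by 51.6% of the tested genes. The antioxidant core, TGACNNNGC, was held by 3 (13%) and by 16.6%. Both strands were searched, the p53 half-site reads the same in both, and a match is a description of the letters and not of binding. The 4 genes with a half-site were *Cdkn1a*, *Ddit4l*, *Aen* and *1700007K13Rik*. The last of these, listed under its RIKEN clone name, rose 3.02-fold (adjusted p = 0.0108). Their 250 bases before the start are shown, 5′ to 3′ on the strand of the gene. Where a gene had several annotated starts, the promoter with the most half-sites before the start was picked. Other promoters of *Cdkn1a* (chr17:29093519-29093818) and *Aen* (chr7:78895677-78895976) held no half-site before their starts. The search window was that short, so any half-site found had to lie close to the start. Capitals mark the half-sites, and the promoter of *Cyp3a44*, the largest riser, follows and holds none of the 3 motifs.
*Cdkn1a*, chr17:29090729-29090978, plus strand: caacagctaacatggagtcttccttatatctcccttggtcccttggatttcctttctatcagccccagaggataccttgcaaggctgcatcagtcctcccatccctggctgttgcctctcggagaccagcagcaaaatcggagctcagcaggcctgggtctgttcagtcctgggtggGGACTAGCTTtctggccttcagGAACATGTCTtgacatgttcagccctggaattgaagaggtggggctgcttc
*Ddit4l*, chr3:137623422-137623671, plus strand: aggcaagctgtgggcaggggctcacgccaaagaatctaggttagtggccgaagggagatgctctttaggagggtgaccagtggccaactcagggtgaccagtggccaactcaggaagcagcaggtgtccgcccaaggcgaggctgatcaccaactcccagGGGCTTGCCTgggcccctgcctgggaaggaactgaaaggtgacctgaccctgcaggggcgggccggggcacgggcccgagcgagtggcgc
*Aen*, chr7:78895808-78896057, plus strand: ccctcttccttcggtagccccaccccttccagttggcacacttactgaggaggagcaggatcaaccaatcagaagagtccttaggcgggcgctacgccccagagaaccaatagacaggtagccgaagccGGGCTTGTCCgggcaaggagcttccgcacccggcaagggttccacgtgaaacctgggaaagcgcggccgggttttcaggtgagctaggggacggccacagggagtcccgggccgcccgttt
*1700007K13Rik*, chr2:28466325-28466574, minus strand: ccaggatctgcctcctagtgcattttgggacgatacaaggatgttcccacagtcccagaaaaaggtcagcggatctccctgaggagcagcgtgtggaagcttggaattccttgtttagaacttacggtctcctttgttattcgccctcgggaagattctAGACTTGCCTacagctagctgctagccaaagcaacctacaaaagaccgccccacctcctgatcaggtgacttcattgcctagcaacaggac
*Cyp3a44*, chr5:145805875-145806124, minus strand: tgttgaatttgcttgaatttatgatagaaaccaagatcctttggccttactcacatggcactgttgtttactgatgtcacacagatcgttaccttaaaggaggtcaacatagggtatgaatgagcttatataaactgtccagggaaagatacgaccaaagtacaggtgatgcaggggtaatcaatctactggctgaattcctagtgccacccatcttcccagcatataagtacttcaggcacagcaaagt
The *Cdkn1a* half-sites begin 73 and 51 bases before the start of the promoter shown. That of *Ddit4l* begins 90 bases, that of *1700007K13Rik* 91 bases and that of *Aen* 121 bases before it.

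The second group of large risers held *Ltc4s* and genes known from non-parenchymal cells. For *Ltc4s* the paper cites a rise in both hepatocytes and sinusoidal endothelial cells of injured rat liver. In whole liver, more cells of a type and more RNA per cell cannot be told apart. *Ltc4s*, leukotriene C4 synthase, which joins glutathione to leukotriene A4, had log2 ratios of 0.20, 0.06, -0.13, -0.07 and 0.11 in the controls and 1.86, 3.15, 2.55, 2.04 and 1.93 in the exposed arrays. No other probe had a smaller p, and the gap between the groups was wide against a control SD of 0.13 (4.82-fold, SE 0.22 on the log2 scale, adjusted p = 5.11e-05). None of the other 8 tested genes of leukotriene synthesis was called, with differences between -0.13 and 0.08.

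*Marco*, a scavenger receptor of macrophages, had control values of 1.83, 2.21, 2.13, 2.81 and 3.04 and exposed values of 4.08, 4.15, 4.37, 5.76 and 4.62. The rise was 4.55-fold (adjusted p = 0.00146), with replicate 19 highest. Of 14 tested Kupffer cell and macrophage markers, *Marco* was the only one called, and the median of the list was 0.10. *Clec4f*, *Timd4* and *Vsig4*, markers of resident Kupffer cells, had differences of 0.12, 0.05 and 0.03 (adjusted p = 0.807 or more). *Lyz2* (lysozyme) was 0.80 higher without passing (adjusted p = 0.246).

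*Lyve1*, a hyaluronan receptor of lymphatic and liver sinusoidal endothelium, rose 4.69-fold (log2 2.23, SE 0.40, adjusted p = 0.0188). Its values were 2.14, 0.64, 1.74, 2.48 and 2.25 in the controls and 3.79, 4.84, 4.64, 3.26 and 3.88 in the exposed arrays. The groups did not overlap, but the call was lost without any 1 of 4 arrays, exposed replicates 17, 18 and 20 and control replicate 2 (highest adjusted p 0.0812). A dimmer second probe was not well above background on any control array and did not pass (adjusted p = 0.0769). Of 13 tested sinusoidal endothelial markers it was the only one called, and the median was 0.30, with *Stab2* at 0.28 and *Gata4* at -0.06.

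*Mmrn2*, an endothelial extracellular matrix protein, had the second smallest p of all probes. It stood at 5.19, 4.60, 5.12, 5.23 and 4.99 in the controls and at 6.22, 6.62, 6.50, 6.06 and 6.52 in the exposed arrays, a 2.56-fold rise (adjusted p = 9.99e-05). *Icam2*, an adhesion molecule of endothelium, rose 1.86-fold (adjusted p = 0.00324). *Rasip1*, which vessels need to form a lumen, rose 1.60-fold with an SD of 0.11 in each group (adjusted p = 0.00146). *Gpihbp1*, which anchors lipoprotein lipase on capillaries, rose 1.69-fold (adjusted p = 0.0235). Its call was lost with slide as a block (adjusted p = 0.0758) and without exposed replicate 18 or 20 or control replicate 2 or 5 (highest adjusted p 0.101). *Lama4*, a laminin chain of vessel basement membranes, rose 1.80-fold (adjusted p = 0.0400), a call that was lost without any 1 of 12 arrays (highest adjusted p 0.106). *Ly6c1*, a surface antigen of monocytes and endothelium, rose 1.99-fold on one probe (adjusted p = 0.00622), while a second *Ly6c1* probe gave -0.08 (adjusted p = 0.866).

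Cell type markers were read as lists of 1 probe a gene, the brightest present one, over 12955 genes. Over all of these, 30 genes were called higher (0.232%) and 1 lower (0.00772%), 996 (7.69%) were higher and 640 (4.94%) lower at an unadjusted p under 0.05, and positive and negative differences were equally frequent (6477 and 6478). Exposed arrays lay above all controls for 146 genes (1.13%) and below for 70 (0.54%). Of 24 tested general endothelial markers, 2 were called (*Mmrn2* and *Icam2*), 17 were higher at an unadjusted p under 0.05, 0 were lower, and 22 had a positive difference. The median log2 fold change of the list was 0.54, beside 0.37 and 0.39 for the middle and the lowest dose. Values that did not pass were 1.23 for *Pcdh17*, 0.98 for *Tmem88*, 0.86 for *Esam*, 0.78 for *Cdh5* (VE-cadherin), 0.22 for *Pecam1* (CD31) and -0.11 for *Tek*. The study's own table of changed genes, drawn from these samples and so not independent of them, holds 7 of the 24, and the median over the others was 0.46.

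The mean of the endothelial list was 2.31, 1.82, 2.12, 2.36 and 2.05 in the controls and 2.45, 2.76, 2.94, 2.40 and 2.93 in the exposed arrays. All 5 exposed arrays lay above all controls, although replicates 16 and 19 did so narrowly. The mean of the 5 tested red cell markers also separated the groups, with 2.32 to 2.82 in the controls and 2.83 to 3.35 in the exposed arrays, and its part in the result was not tested. Separation was not particular to these lists. The list means of p53 targets, glutathione S-transferases, NRF2 targets, leukotriene synthesis, fatty acid and triglyceride synthesis and female-biased liver genes separated the groups too. Within the 3 slides that held both groups, the endothelial list's median difference was 0.39, 0.87 and 0.12. Of 20 stellate cell and matrix markers none was called, the median was 0.33, and *Postn* (periostin) was at 0.94 (adjusted p = 0.0837) and *Dcn* (decorin) at 0.80 (0.188). Bile duct, neutrophil, red cell, T and natural killer cell and B cell markers had 0 called of 11, 5, 5, 9 and 7 tested, with medians of 0.06, 0.28, 0.31, -0.06 and -0.02. The bile duct list held *Tff3* at 1.41 (adjusted p = 0.122), and the neutrophil list *S100a9* at 1.34 (adjusted p = 0.186). The 4 tested lung epithelium markers had a median of -0.09.

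**Figure D2:**
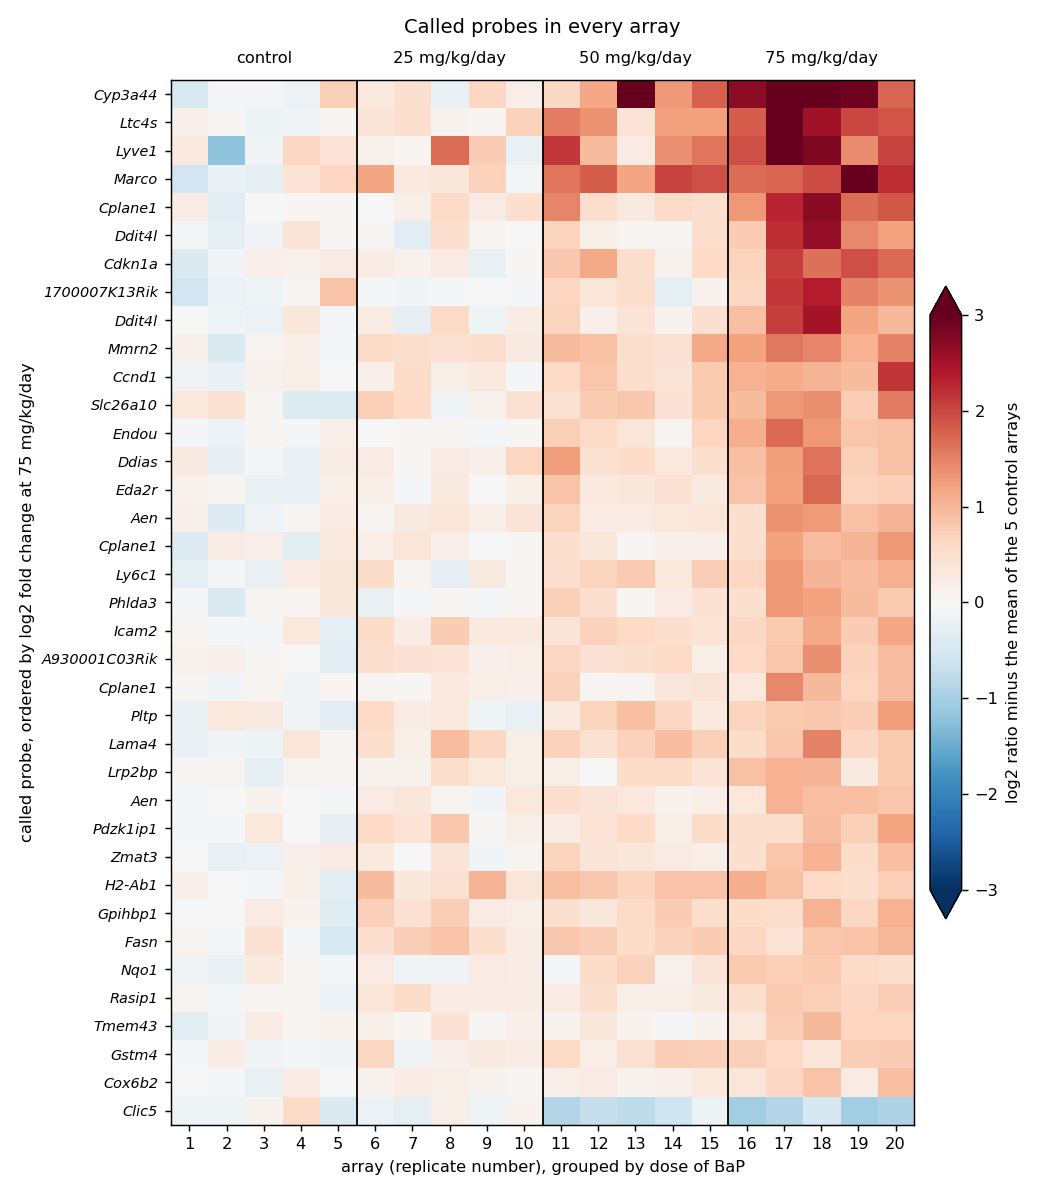
Rows are the 37 called probes, columns the 20 arrays by dose, and color the log2 ratio minus the mean of the 5 controls (the color scale ends at 3 on either side). The rise deepens from 50 to 75 mg/kg/day in most rows, which the choice of probes by their difference at 75 mg/kg/day favors. Among the exposed arrays replicate 16 is often the palest.

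The exposed mice differed among themselves in how far the called genes rose. Replicate 16 had the lowest value of the 5 exposed arrays for 20 of the 36 probes called higher and replicate 19 for 10. Replicate 17 was highest for 13, and replicates 18 and 20 for 10 each. The median of the 36 differences from the control mean was 0.66 in replicate 16, 1.22 in replicate 17, 1.17 in replicate 18, 0.79 in replicate 19 and 1.00 in replicate 20.

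The remaining risers share no list. *Cplane1*, a ciliogenesis and planar polarity gene, was called by 3 probes. On the brightest of them it stood at -1.25, -1.79, -1.49, -1.43 and -1.43 in the controls and at -0.17, 0.82, 1.24, 0.21 and 0.39 in the exposed arrays. This was a 3.93-fold rise without overlap (adjusted p = 0.000248). A second probe was not well above background on any control and was so on 4 exposed arrays, which gave a rise of at least 1.74-fold (adjusted p = 0.00591). It passed the presence filter only through the exposed groups, where it was high, and so adds no support to the first. The third probe, well above background on 1 control array, rose 1.82-fold (adjusted p = 0.0175), and lost the call without exposed replicate 18 or 20 (highest adjusted p 0.0617) and with slide as a block (0.0751). *Endou*, a uridylate-specific endoribonuclease, rose 2.23-fold (adjusted p = 0.000603), from between -1.12 and -0.76 to 0.12, 0.74, 0.36, -0.13 and -0.07.

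*Slc26a10*, of an anion transporter family, rose 2.28-fold (adjusted p = 0.00861), and *A930001C03Rik*, an uncharacterized transcript, 1.85-fold (adjusted p = 0.00454). *Lrp2bp*, a megalin-binding protein, rose 1.74-fold (adjusted p = 0.0182). *Tmem43*, of the inner nuclear membrane, rose 1.59-fold (adjusted p = 0.0189). Both calls were lost without exposed replicate 17, 18 or 20, and that of *Tmem43* also without control replicate 2 (highest adjusted p 0.0764 and 0.0751). *Pdzk1ip1*, a small membrane protein of epithelia, rose 1.71-fold (adjusted p = 0.0400). *Cox6b2*, a cytochrome c oxidase subunit best known from testis, rose 1.51-fold (adjusted p = 0.0333). The *Pdzk1ip1* call was lost with slide as a block (adjusted p = 0.0682) and without any 1 of 10 arrays (highest 0.156). That of *Cox6b2* was lost with the block (0.0942), without any 1 of 8 arrays (highest 0.123) and with the liver channel alone (0.369).

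Lipid genes with a call were *Pltp*, phospholipid transfer protein, at 1.80-fold, and *Fasn*, fatty acid synthase, at 1.68-fold (adjusted p = 0.0400 for each). *Fasn* had control values of 0.91, 0.76, 1.28, 0.79 and 0.36 and exposed values of 1.45, 1.24, 1.66, 1.67 and 1.81. Exposed replicate 17 lay just below the highest control. *Fasn* lost its call without any 1 of 15 arrays (highest adjusted p 0.148), with slide as a block (0.117) and with the liver channel alone (0.261). *Pltp* lost its call without any 1 of 10 arrays (0.156). Of 18 tested genes of fatty acid and triglyceride synthesis *Fasn* was the only one called, 17 had a positive difference, 9 passed an unadjusted p under 0.05, and the median was 0.33 at this dose and 0.34 at 50 mg/kg/day. *Pnpla3*, a lipid droplet hydrolase, was 1.41 higher (adjusted p = 0.133) without overlap of the groups, and *Scd1* 1.04 higher (adjusted p = 0.232). Of 19 genes of cholesterol synthesis none was called, and the median was 0.17.

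*H2-Ab1*, the beta chain of an MHC class II molecule, rose 1.69-fold on 1 of 3 probes (adjusted p = 0.0235). The call was lost without control replicate 2 or 5 or exposed replicate 16, 17 or 20 (highest adjusted p 0.104) and with the liver channel alone (0.225). Its brightest probe fell just outside at an adjusted p of 0.05004, so the MHC class II list counted 0 of 7 called, with a median of 0.27 and 7 positive differences. Of all called probes this was the one with a smaller difference at 75 than at 50 mg/kg/day (0.76 and 0.82).

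In the other direction the data held far less. *Clic5*, a chloride intracellular channel protein that links membranes to the actin cortex, was the single transcript called lower. It stood at 1.20, 1.21, 1.44, 1.90 and 0.90 in the controls and at 0.28, 0.46, 0.84, 0.28 and 0.40 in the exposed arrays. The groups did not overlap, and it fell by 0.88 on the log2 scale (SE 0.17, adjusted p = 0.0313). A dimmer second *Clic5* probe gave -0.10 (adjusted p = 0.830), and the call was lost without any 1 of 7 arrays (highest adjusted p 0.0987). Blocking on slide also ended the call (adjusted p = 0.0888), as did leaving the reference channel aside (0.0622), omitting background correction (0.0550) or fitting only the 10 arrays compared (0.196).

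At the bottom of the ranking stood *Mt2*, *Moxd1*, *Nnmt*, *Thumpd1* and *Mt1*, none of which passed. *Mt2*, a metallothionein, had a difference of -2.17 (adjusted p = 0.284), yet its control values were -4.05, 0.16, 0.64, -3.52 and 0.06 and its exposed values -3.05, -3.58, -3.79, -3.71 and -3.42. Control replicates 1 and 4 thus lay among or below the exposed arrays and the other 3 far above them. *Mt1* showed a like spread in the controls (-3.48, 0.54, 0.76, -2.94 and -0.69). *Nnmt*, which methylates nicotinamide, had a difference of -1.65 (adjusted p = 0.154), with 0.63, 1.18, 1.33, 0.64 and 2.91 in the controls and 0.86, 0.02, -0.44, -0.68 and -1.33 in the exposed arrays. Of 13 genes of nicotinamide and methyl group metabolism none was called and the median was 0.31, with the other members between -0.28 and 0.60.

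The 10 largest falls without overlap that were not called ran from -0.77 for *Clstn3* to -0.49 for *Lyrm4*. They included *Anp32a* at -0.70 (adjusted p = 0.0718), *Gpat3*, an enzyme of triglyceride synthesis, at -0.70 (0.237), and *Kalrn* at -0.58 (0.0798), with *Mgarp*, *Spsb4*, *Pes1*, *Ott* and *Prkg2* between -0.55 and -0.51. The matching 10 rises ran from 1.53 for *Egr1* to 0.91 for *Saa1*. *Egr1*, an immediate early transcription factor, had values of -2.90, -2.76, -3.29, -3.33 and -3.33 in the controls and -1.097, -1.39, -2.40, -2.58 and -0.52 in the exposed arrays. They did not overlap, but the exposed SD of 0.87 left it at an adjusted p of 0.170. *Slc10a2*, the apical bile acid transporter, separated the groups on 3 probes at 1.52, 1.06 and 0.74 (adjusted p = 0.0894 or more). *Sftpd*, surfactant protein D, was 1.19 higher (adjusted p = 0.0683), and *Postn*, *Myo6* and *Cyp2b9* were among the rest.

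Near the thresholds, *Lama4*, *Pltp* and *Fasn* lay just inside the adjusted p at 0.0400, and the brightest *H2-Ab1* probe, *Gstm3* (0.0508) and *Gpx7* (0.0551) just outside it. For fold-change, *Cox6b2* (1.51), *Gstm4* (1.56) and *Tmem43* (1.59) lay just inside. *Dgkq* (1.40) and a *Cyp2c40* probe (1.49) passed the adjusted p but not the fold, as did a probe without a symbol at a ratio of 0.690.

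**Figure D3:**
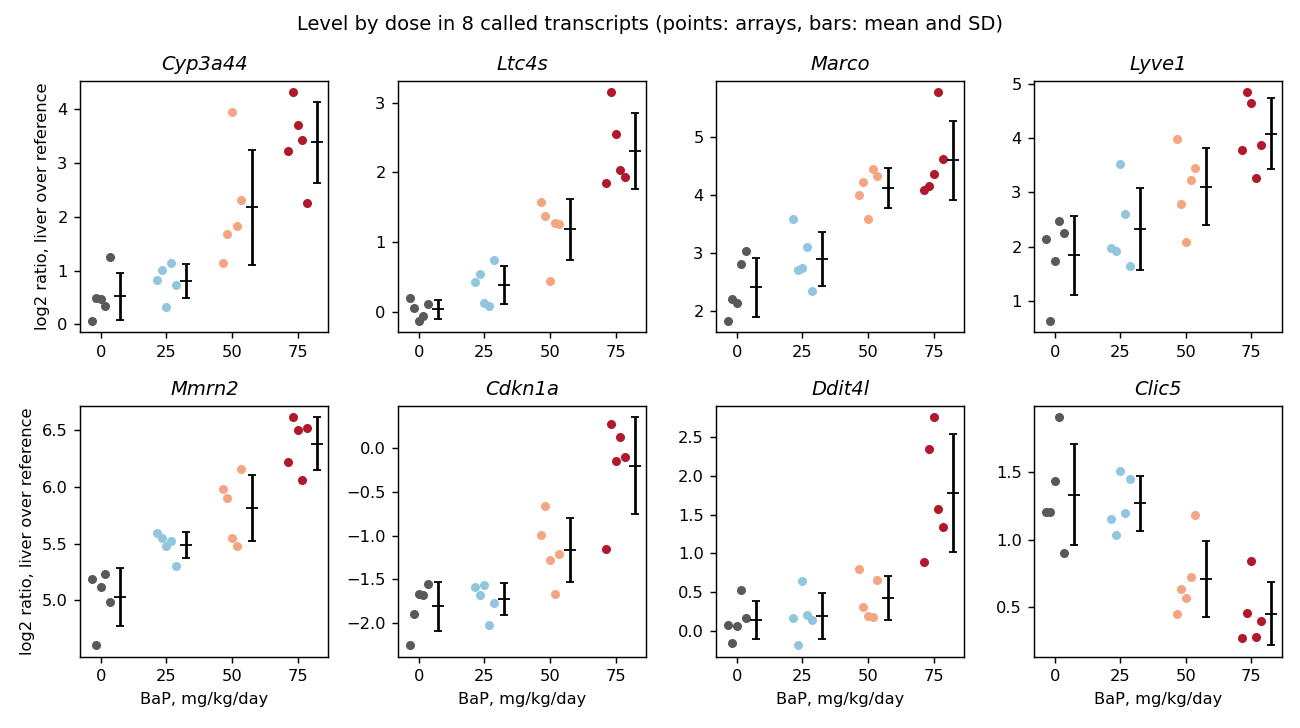
Log2 ratio of liver over reference (y axis) against dose in mg/kg/day (x axis) for 8 called transcripts, with points for single arrays and bars for the mean and SD of 5. At 75 mg/kg/day the 7 risers lie above the controls and *Clic5* below, with intermediate means at 50 mg/kg/day.

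Neither lower dose had a call against the controls (0 probes, 0%). An unadjusted p under 0.05 was met by 1823 probes (6.7%) at the middle dose and by 2125 (7.81%) at the lowest. All 36 probes called higher at 75 mg/kg/day had a positive difference at 50 mg/kg/day, and 34 of them at 25. These contrasts share the control arrays with the one that chose the probes, which by itself favors the same sign. The share over all probes was not computed. *Cyp3a44* stood at 0.28, 1.66 and 2.86 over control from the lowest to the highest dose, *Ltc4s* at 0.35, 1.15 and 2.27, *Marco* at 0.49, 1.71 and 2.19, and *Cdkn1a* at 0.08, 0.64 and 1.60. *Ddit4l* was at 0.06, 0.29 and 1.65, and *Clic5* at -0.06, -0.62 and -0.88. Set directly against 50 mg/kg/day, 0 of 27202 probes were called (0%), and 1882 (6.92%) had an unadjusted p under 0.05. Of the 37 called probes, 36 had the larger difference at 75. They were chosen by that difference, so the choice alone favors a larger value there, and no trend over dose follows from the count. The step was 1.36 for *Ddit4l* (SE 0.26, adjusted p = 0.374), 1.31 for *Cplane1* (SE 0.23, 0.304) and 0.48 for *Marco* (SE 0.30, 0.779). Leaving out exposed replicate 16 gave 6 called steps among the 37.

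Of 28 tested p53 targets, 6 were called (*Cdkn1a*, *Ccnd1*, *Eda2r*, *Aen*, *Phlda3* and *Zmat3*), 15 were higher at an unadjusted p under 0.05, 0 were lower, and 22 had a positive difference. The median was 0.39, beside 0.09 at 50 and -0.03 at 25 mg/kg/day. The study's table holds 7 of the 28, and the others had a median of 0.29 and 0 calls. Values without a call were 1.04 for *Ccng1* (cyclin G1, adjusted p = 0.131), 0.73 for *Tigar*, 0.69 for *Gdf15*, 0.55 for *Btg2*, 0.40 for *Bax* and 0.39 for *Mdm2*. *Fas*, *Ddb2*, *Perp* and *Pmaip1* were between -0.20 and -0.13, and *Bbc3* (PUMA) was at -0.03. The list mean was -0.70, -0.82, -0.76, -0.68 and -0.61 in the controls and -0.43, -0.12, -0.12, -0.33 and -0.34 in the exposed arrays, without overlap. Its median difference was 0.41, 0.36 and 0.28 within the 3 slides.

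Of 19 genes of DNA adduct repair and bypass none was called, and the median was 0.01. *Polk*, a polymerase that bypasses bulky adducts, had the largest difference at 0.67 (adjusted p = 0.236). Of 19 mitotic cell cycle genes none was called either, with a median of 0.06 and no member beyond -0.20 or 0.33. Of 14 immediate early genes none was called, the median was 0.24, and *Egr1*, *Junb*, *Klf4* and *Fos* separated the groups.

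Among 8 tested targets of the aryl hydrocarbon receptor, *Nqo1* was called and the median was 0.43. That median rested on exposed replicate 16, without which it was 0.175, and within the 3 slides it was -0.015, 0.093 and 0.664. *Cyp1a1*, the classical target, stood at 0.14, 0.56, -0.24, 0.28 and 0.14 in the controls and at 3.64, 0.07, 0.07, 0.21 and 0.49 in the exposed arrays. Its probe was well above background on 2 control and 3 exposed arrays and was not present in the control group, so not every value was well measured. The mean difference was 0.72 (adjusted p = 0.564), with replicate 16 far above all others and replicates 17 to 20 within the range of the controls. *Tiparp* was 0.54 higher without overlap (adjusted p = 0.131), and *Cyp1a2* 0.31 and 0.45 higher on a pair of probes (adjusted p = 0.469 and 0.146). Of 11 NRF2 targets *Nqo1* was again the one called, 10 were positive and the median was 0.32.

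Of 19 glutathione S-transferases 1 was called (*Gstm4*), 17 were positive, 10 passed an unadjusted p under 0.05, and the median was 0.38. *Gstm3* was 0.90 higher without overlap of the groups. The cytochrome P450 families had 0 called of 6 in 3A, where the dim *Cyp3a44* probe is not counted, and 0 of 16 in 2A, 2B and 2C, with medians of 0.51 and 0.49. *Cyp2b13* was 1.44 higher (adjusted p = 0.189), *Cyp2b9* 1.08 (0.0718) and *Cyp2c38* 0.87 (0.167). The *Cyp2c38* probe was not present in the control group and was well above background on 2 control arrays, so its control level was poorly measured. Female-biased liver genes (13 tested) and male-biased ones (12 tested) had 0 called each and medians of 0.51 and 0.36, so both were positive. The list mean lay above all controls in 5 exposed arrays for the female-biased genes and in 0 for the male-biased ones. Bile acid, acute phase, PPAR alpha and retinoid lists had 0 called of 18, 14, 18 and 16, with medians of 0.36, 0.34, 0.15 and 0.24.

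These lists are made of genes that hepatocytes express, and the whole class of liver-rich probes moved with them. Hepatocyte markers had 0 called of 12, yet all 12 differences were positive and the median was 0.42. Their list mean ranged from 4.33 to 5.58 in the controls and from 5.14 to 5.46 in the exposed arrays, so the control arrays enclosed the exposed ones, and within the 3 slides the median difference was 0.77, 0.29 and -0.20. The 2082 probes with a mean log2 ratio over 2 had a median difference of 0.20 at 75 mg/kg/day, and array by array this ran from 0.08 to 0.32 in the exposed and from -0.08 to 0.20 in the control group. With the liver channel alone, quantile normalized, the hepatocyte median was -0.01, that of the P450 3A family 0.01, of male-biased genes -0.07, of acute phase genes -0.34 and of bile acid genes 0.13. Under the same setting the P450 2A, 2B and 2C median was 0.51, female-biased genes 0.26, glutathione S-transferases 0.24, p53 targets 0.42 and endothelial markers 0.39. Of the 37 called probes, 6 (16.2%) were liver-rich, against 7.65% of all present probes. The mean that defines liver-rich includes the exposed arrays, so a riser can pass through its own rise. *Lyve1*, with means of 1.85 in the controls and 4.08 in the exposed arrays, did so, and nothing is concluded from the share.

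**Figure D4:**
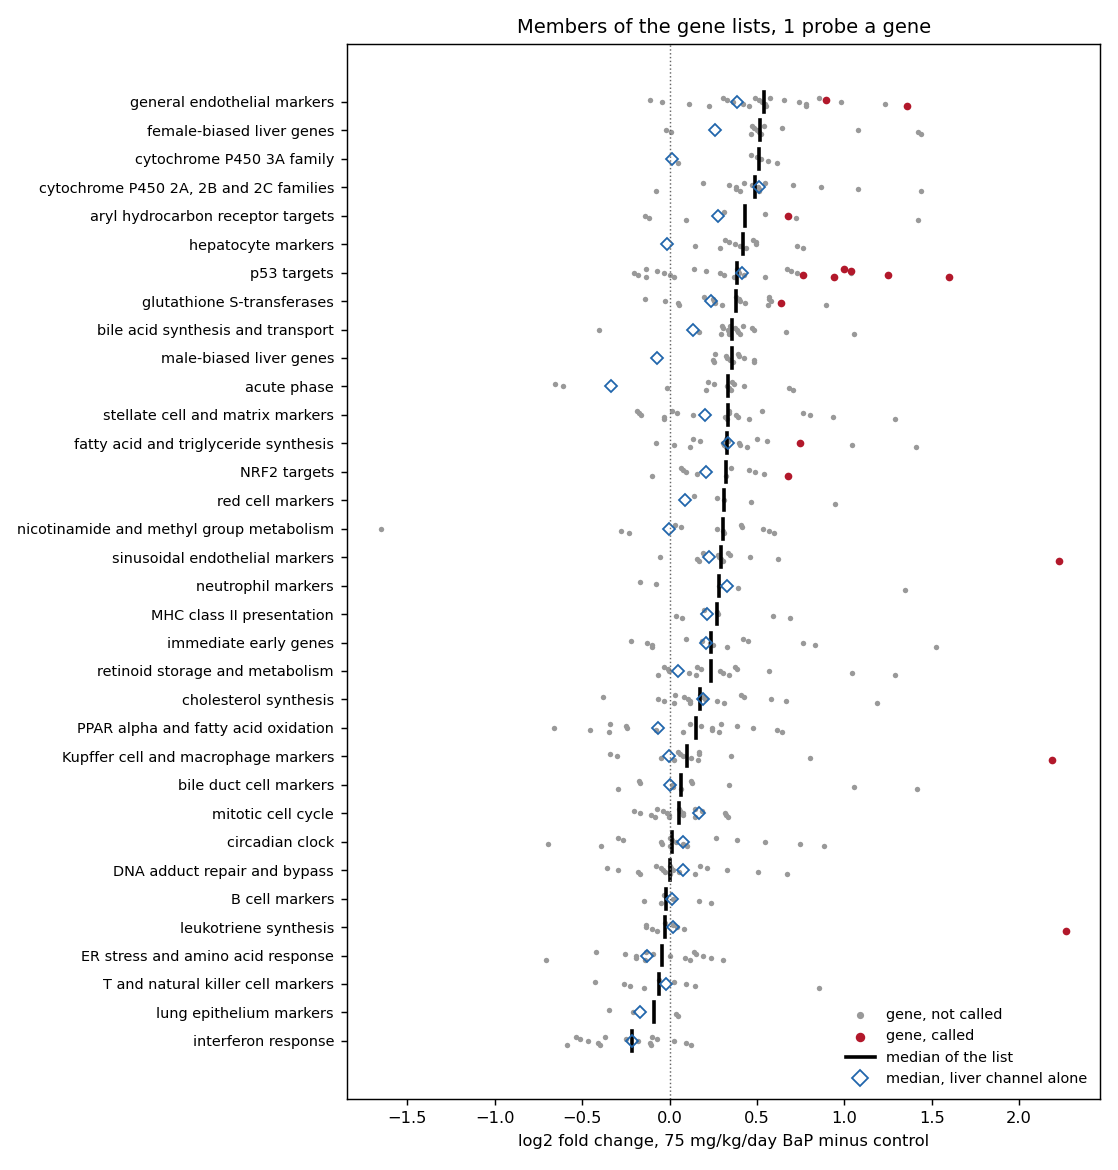
The x axis is the log2 fold change at 75 mg/kg/day over control for each tested member (points, red where called) of 34 gene lists (y axis), with black bars for list medians and blue diamonds for the medians with the liver channel alone. The diamond falls to near 0 for hepatocyte markers and the P450 3A family and stays near the bar for p53 targets.

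Interferon response genes were the list with the lowest median, -0.21, with 0 called of 16 and 13 negative differences, beside -0.18 at 50 and -0.46 at 25 mg/kg/day. The list mean ran from -0.66 to 0.32 in the controls and from -0.77 to -0.07 in the exposed arrays, and the groups overlapped. *Rsad2* at -0.59 and *Usp18* at -0.54 had the largest differences, and neither passed. Circadian clock genes and genes of the ER stress and amino acid response had 0 called of 17 and 16, with medians of 0.02 and -0.05.

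**Figure D5:**
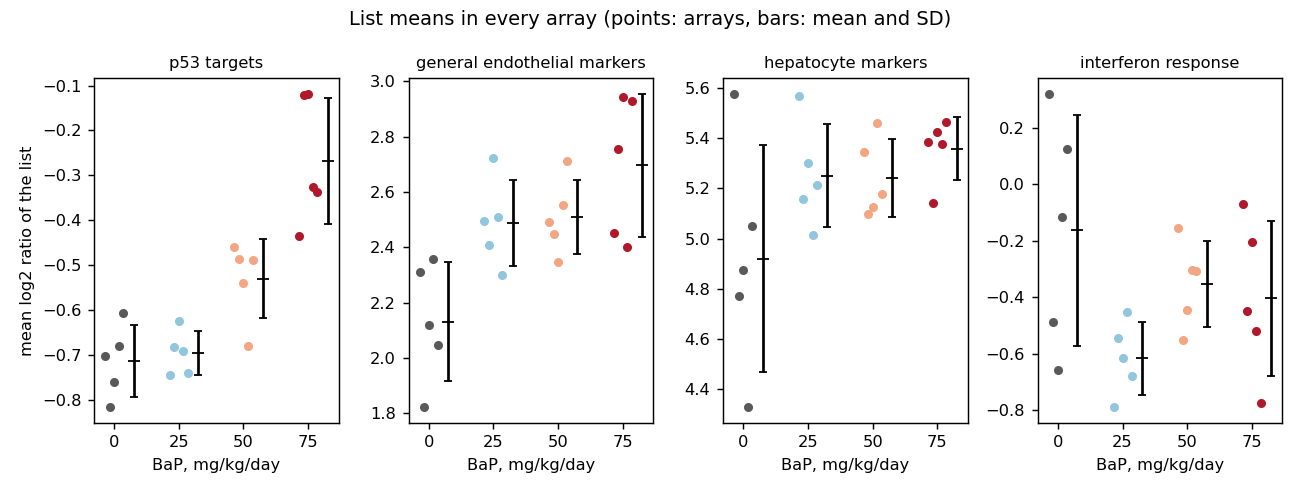
The mean log2 ratio over the members of 4 lists (y axis) in every array, by dose in mg/kg/day (x axis), with the mean and SD of 5 arrays. The exposed arrays at 75 mg/kg/day lie above all controls for p53 targets and endothelial markers, lie within the control range for hepatocyte markers and overlap the controls for the interferon response.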

How the data were processed

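Liver RNA was hybridized with universal mouse reference RNA on 20 two-color Agilent arrays (45018 features), 5 for each dose of BaP. The authors deposited the median spot and background intensity of both channels per array, as Feature Extraction (10.1.1.1 in the file headers) gave them and without normalization, and log2 ratios of liver over reference that they had normalized by LOWESS. The array was designed on build mm8. Here, with outlier spots left out, background was corrected by the normexp method with an offset of 50, a loess curve was removed from each array, and spots of 1 probe were averaged. The resulting log2 ratios correlated with the authors' at r of 0.994 to 0.996 across probes, and 0 spots were saturated.

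Presence followed the study's methods: a probe counted where 4 or more arrays of any dose group exceeded the 5% trimmed mean of the 153 negative control spots by 3 trimmed SDs. One limma model of all 20 arrays was fitted across 27202 probes, with Benjamini-Hochberg adjustment within a contrast, in place of the permutation F test of the methods, which also removed 1 sample that is not named. Each group was 5 mice. The number of arrays limits the precision. Symbols came from RefSeq accessions (23374 probes) or the gene table of the study (33 probes), and 17767 probes had none.

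Genes named are those called, the 10 largest rises and falls without overlap that were not called, up to 4 members of each of 34 lists, 3 probes on each side of each threshold, and genes the study names, of which *Igf1* was 0.45 higher (adjusted p = 0.170) and *Gstm7* 0.57 (0.226). Further members, and the transcripts of the closing observations, were picked after their values were seen. The comparison, lists and rules were chosen with earlier results of these data known. Alternatives were another filter, background correction, normalization, slide as a block, fewer arrays and another variance model. The fit was tested on simulated data. R 4.3.3, limma 3.58.1, statmod 1.5.0, data.table (version 1.17.8), and Python with matplotlib were used.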

Additional observations from a re-analysis of the deposited data

Results flagged for a closer look

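Within groups of 5 arrays, 74 groups of the 37 called probes were examined for 1 array far from the rest (gap over range above 0.71), and 6 had one, where chance alone flags about 1 in 20. In the exposed group these were *Ccnd1* at -0.07 and *Pltp* at 0.88, both in replicate 20, and *Lama4* at 2.42 in replicate 18. In the control group they were *A930001C03Rik* at 1.23 in replicate 5, *Lrp2bp* at -0.15 in replicate 3 and *Gstm4* at 3.69 in replicate 2. The exposed outliers lay on the far side from the controls, and the *Gstm4* control lay on the side of the exposed arrays. The nearest other arrays stood at -1.11 for *Ccnd1*, 0.43 for *Pltp*, 1.74 for *Lama4*, 1.57 for *A930001C03Rik*, 0.17 for *Lrp2bp* and 3.43 for *Gstm4*.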

How the results depend on the processing

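All 37 called transcripts kept their direction under every alternative that gave a value, and 22 of them, of 19 genes, kept their call whichever array was left out. The number called higher was 36 as reported, 56 with the processed signals of the scanner software and 5 where the model held only the 10 arrays compared, so that fewer arrays estimate the spread. Leaving out 1 array gave between 25 (without exposed replicate 20) and 65 (without exposed replicate 19). The number called lower was 1 as reported, 5 with array weights, 6 with the processed signals, 8 with slide as a block, and 0 with the 2 groups only, the liver channel alone or no background correction. Leaving out 1 array gave between 0 (without control replicate 4 or exposed replicate 16, 17 or 20) and 7 (without exposed replicate 19), with 6 without control replicate 3 and 2 without control replicate 2. Steps from 50 to 75 mg/kg/day called among the 37 were 0 as reported and between 0 and 6 without 1 array (6 without exposed replicate 16 and 1 without 50 mg/kg/day replicate 11). The brighter *Saa1* probe (0.33 as reported) was reversed to -0.90 with the liver channel alone (adjusted p = 0.648), and the cause was not tested. Other counts were 42 higher and 1 lower with the authors' ratios and 26 and 1 with 19397 probes well above background on all 10 arrays. The groups share no replicate numbers, so arrays were compared within slides and with slide as a block, and not by number. Without control replicate 4 the acute phase median of 0.34 was 0.14, and without exposed replicate 20 the NRF2 median of 0.32 was 0.21. The cholesterol synthesis, PPAR alpha, Kupffer cell and interferon medians also moved by over 1.5 times without 1 of 2 or more arrays, within 0.11 to 0.24, 0.07 to 0.21, 0.05 to 0.19 and -0.31 to -0.12. So did the lists whose median was near 0. Dim probes limit the lower end: *Eda2r* and 1 *Cplane1* probe have only a bound in the controls.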

Other observations

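Some of the largest differences in the ranking came from transcripts whose level varied widely within both groups. *Pigt* stood at -1.94, 3.31, 5.36, 1.99 and 1.36 in the controls and 2.11, 3.39, 1.33, 5.97 and 5.71 in the exposed arrays. *Lars2* stood at -2.53, 2.97, 5.92, 1.20 and 0.53 and at 1.37, 2.63, -0.45, 6.39 and 5.57, and *Grn* at -1.82, 2.18, 4.47, 0.82 and 0.50 and at 1.45, 2.31, -0.68, 5.49 and 4.85. The same arrays were high for all 3 of these, control replicate 3 and exposed replicates 19 and 20. So were 25 mg/kg/day replicates 6 and 7 and 50 mg/kg/day replicate 12. All of these arrays lay on slides that did not hold both a control and an exposed array. On the same slides control replicate 2 and 50 mg/kg/day replicate 13 were lower, and the part of the slide was not tested. The differences of *Pigt*, *Lars2* and *Grn* were 1.69, 1.49 and 1.46, with adjusted p of 0.653 or more.

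*Dio1*, which activates thyroid hormone, was at 1.78 in exposed replicate 16 and 3.61 in replicate 20, against 6.60 to 6.94 in the other exposed arrays and 5.40 to 6.49 in the controls. *Thumpd1* was at -2.75, -2.82 and -2.94 in exposed replicates 16, 17 and 20 and at -0.03 and 0.01 in replicates 18 and 19, and control replicate 3 was at -2.16. Neither passed the test.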
